A study of Mus musculus with 6 samples.

Results

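The genes described here mark disease-associated microglia, an activated state of the brain's resident macrophages that depends on the receptor TREM2. The 10 members are Trem2, Tyrobp, Itgax, Cst7, Clec7a, Spp1, Axl, Ccl6, Cd68 and Ctss, matched by Ensembl identifier among the 29872 genes in the files. They were chosen by their known role in that state and by their RPKM in these same libraries, with the contrast between knockdown and control already known, so their values are a description, with no p-value. RNA was sequenced from hippocampus of C57BL/6J mice in 6 libraries. The 3 shHepaCAM libraries carry the genotype label HepaCAM knockdown. The protocol describes an adeno-associated virus, a gene delivery vector, given into the CA1 field of both hippocampi to lower Hepacam, which encodes an adhesion molecule of astrocytes. The 3 shControl libraries carry the genotype label WT, and the labels do not state what vector, if any, those mice received. The labels give neither the age of the mice nor the promoter that drove the hairpin. They do not say that libraries came from separate mice, so each p-value reflects variation among libraries that could be technical.

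Microglia sense lipids, lipoproteins and cell debris through TREM2, a surface receptor that has no signalling tail of its own. It signals through the adaptor DAP12, the product of Tyrobp, and recruits the kinase SYK. Around amyloid deposits, damaged myelin and dying neurons, microglia lower their homeostatic genes and raise a shared set of genes in an early step that does not need TREM2 and a later step that does. Trem2 and Tyrobp are the receptor and adaptor of this state; Itgax, Clec7a and Axl are surface receptors; Spp1 and Ccl6 are secreted; Cd68, Ctss and Cst7 belong to the endosome and lysosome.

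Between 14903198 and 17341842 reads stood behind the RPKM (reads per kilobase of exon, scaled to the depth of the library) of each library. Hepacam averaged 35.6 ± 1.98 RPKM (SD, n = 3) in shControl and 22.6 ± 1.76 RPKM (SD, n = 3) in shHepaCAM libraries, 36.3% lower (limma log2 difference -0.63, SE 0.07, adjusted p = 0.00924; exact two-sided permutation p = 0.1, the smallest that 3 against 3 libraries allow). Without shControl replicate 3 its adjusted p in limma was 0.0526. Of 13864 genes that averaged 1 RPKM or more, limma on log2(RPKM + 1) placed 842 past an adjusted p of 0.05, which is 6.07%, with 587 (4.23%) higher and 255 (1.84%) lower in shHepaCAM. That split became 336 against 347 after scaling libraries on their median gene, which moved the median log2 difference of all genes from 0.05 to -0.03, and 390 to 341 under quantile normalization. Marker lists set 2 libraries apart. Summed RPKM of 8 choroid plexus epithelium markers was 68.4 in shControl replicate 1 and 29.9 in shHepaCAM replicate 3, and 1699 to 4297 in the other 4. Hippocampal neuron markers were present in every library, with a summed level of 882 to 1140 RPKM over 6 genes. Values per library are given throughout in the order of replicates 1, 2 and 3.

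The members were transcripts of low to middle abundance. In shControl libraries mean RPKM increased in the order Itgax, Ccl6, Clec7a, Trem2, Cst7, Spp1, Axl, Cd68, Tyrobp and Ctss, from 0.998 to 90.7. Several neighbours in that order lay within their spread of each other, among them Trem2 and Cst7, and Spp1 and Axl. All 10 passed the filter at a mean of 1 RPKM, and their whole reads could be worked out from the RPKM values. Reads of a member over the 3 libraries of a group ran from 150 for Ccl6 in shControl to 12078 for Ctss in shHepaCAM. Levels per length depend on the annotated exons: those of Trem2 add up to 4946 bases, while its longest coding transcript has 1088, so that its level per kilobase would be 4.55 times as high if all reads came from that transcript. Exons of 9 members overlap no other annotated gene; Spp1 shares exon sequence with the predicted gene Gm42793 on the same strand, and reads of that pair cannot be told apart.

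The promoters of 4 members are shown because they include the 3 that differed most between the groups, Itgax, Cst7 and Clec7a, and the receptor that names the state, Trem2. The sequences are the 100 bases before the annotated transcription start, from RefSeq, build GRCm38.p6, in the direction of the gene. The windows are chr17:48346301-48346400 (plus strand) for Trem2, chr7:128129450-128129549 (plus strand) for Itgax, chr2:150570315-150570414 (plus strand) for Cst7 and chr6:129472780-129472879 (minus strand) for Clec7a. Capitals mark GAGGAA, a core letter string bound by the myeloid factor PU.1, or TGANTCA, on either strand. N is any base, so TGANTCA is wider than the core string of AP-1, in which N is C or G. The Trem2 match, TGAATCA, lies outside that core.
Trem2: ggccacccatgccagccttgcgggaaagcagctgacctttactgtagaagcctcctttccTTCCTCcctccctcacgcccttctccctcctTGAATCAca
Itgax: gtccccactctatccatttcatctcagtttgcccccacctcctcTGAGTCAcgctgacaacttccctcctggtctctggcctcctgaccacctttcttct
Cst7: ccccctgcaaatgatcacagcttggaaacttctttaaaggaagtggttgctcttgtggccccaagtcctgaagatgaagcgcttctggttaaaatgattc
Clec7a: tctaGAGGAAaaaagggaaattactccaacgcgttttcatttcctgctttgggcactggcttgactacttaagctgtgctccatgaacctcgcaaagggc
RefSeq entries were found for 9 of the 10 members. In the 250 bases before a start, GAGGAA was present in 6 of these 9 (Axl, Cd68, Clec7a, Ctss, Spp1 and Trem2) and in 23.3% of 32851 promoters in the table. A member counted when any of its starts matched, while the share over all promoters is per start. Spp1 and Clec7a have 2 starts each, and for Spp1 only the first held the string. The string TGANTCA was present in 3 of the 9 (Cd68, Itgax and Trem2) and in 6.75% of all promoters. The letters CACGTG, an E-box read by lysosomal gene regulators of the MiT/TFE family, were not in the windows of these 9 and were in 6.02% of all. Itgax, Cst7 and Ccl6 did not hold GAGGAA in their windows. Only these exact strings were searched, so a site spelled otherwise was not counted. A match of letters is a description and not a measured binding site.

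Of the 10 members, 8 were higher in every shHepaCAM library than in any shControl library, while Spp1 and Axl overlapped. Among all genes tested, 20.9% were separated in that direction. In limma 7 members were past the threshold, all higher, and 0 lower, against 4.23% and 1.84% of all genes, and the contrast had already served to choose the members, so nothing is read from this count. By the ratio of group means in RPKM, 6 members were at least 2-fold higher, against 2.50% of all genes tested. The median log2 difference of the members was 0.97, and that of all genes tested was 0.05. In bulk tissue a change in the number of microglia and a change in transcript per microglial cell cannot be told apart.

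**Figure D1:**
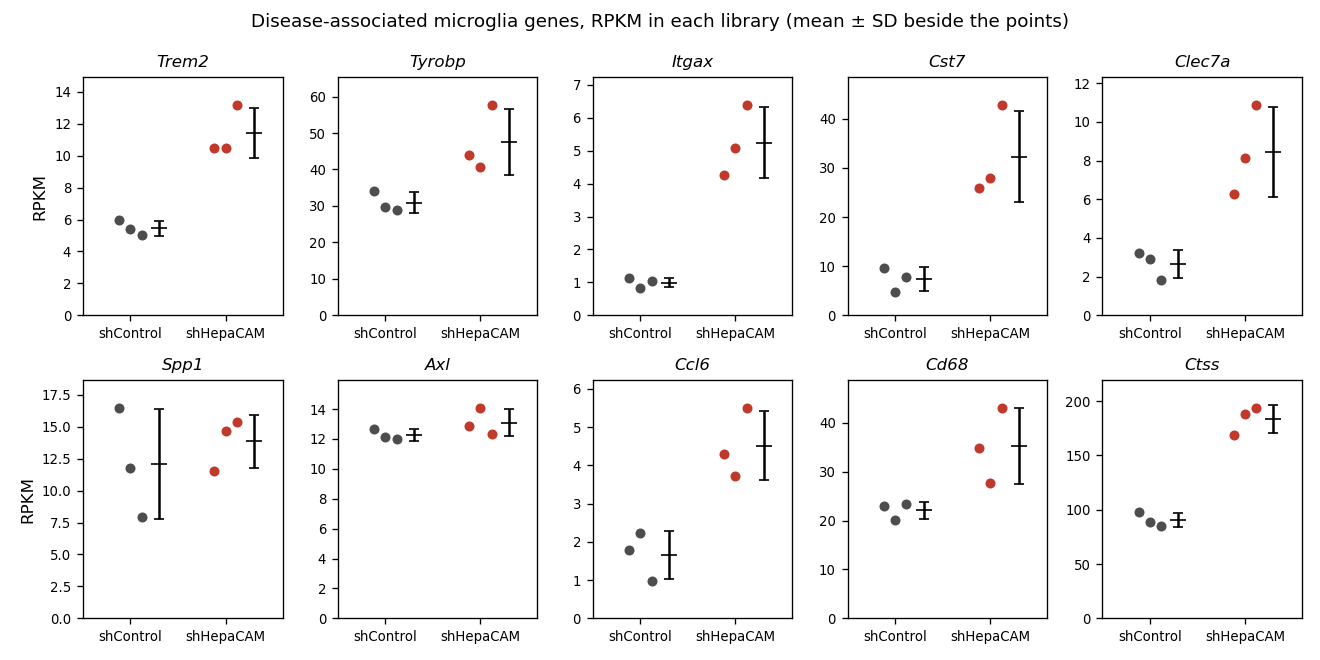
RPKM of the 10 members (vertical axes, each from 0) in the 3 shControl (grey) and 3 shHepaCAM (red) libraries, in replicate order from left to right, with the mean and SD of each group as a bar beside its points. The groups are separate for 8 genes and overlap for Spp1 and Axl.

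The receptor and its adaptor were both higher. Trem2 (ENSMUSG00000023992, chromosome 17) stood at 5.96, 5.40 and 5.01 RPKM in shControl and at 10.5, 10.5 and 13.2 RPKM in shHepaCAM. The groups did not overlap, and the highest value was in shHepaCAM replicate 3. Means were 5.45 ± 0.477 and 11.4 ± 1.54 RPKM (SD, n = 3 each), a ratio of 2.09, and the log2 difference was 0.94 (SE 0.10). Tyrobp (ENSMUSG00000030579, chromosome 7) was at 34.1, 29.7 and 28.9 RPKM in shControl and at 44.0, 40.7 and 57.8 RPKM in shHepaCAM. Again the groups were separate, by a smaller margin than for Trem2, and shHepaCAM replicate 3 was highest. The ratio of means was 1.54 and the log2 difference 0.59 (SE 0.13). The level of Trem2 relative to Tyrobp, as a ratio of RPKM within a library, was 0.175, 0.182 and 0.173 in shControl and 0.238, 0.259 and 0.228 in shHepaCAM libraries. The receptor was thus higher relative to its adaptor in each shHepaCAM library than in any shControl library. DAP12 also serves other receptors of myeloid cells and natural killer cells.

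Among the other surface receptors, Itgax and Clec7a were higher and Axl was not separate. Itgax (ENSMUSG00000030789, chromosome 7), which encodes integrin CD11c of dendritic cells and activated microglia, stood at 1.12, 0.840 and 1.03 RPKM in shControl and at 4.25, 5.08 and 6.40 RPKM in shHepaCAM. This was the largest ratio of means among the members, 5.26, and the lowest shHepaCAM library was well above the highest shControl library. Its log2 difference on the log2(RPKM + 1) scale was 1.63 (SE 0.14); that scale understates low genes, and with limma-voom on whole reads, an analysis added after the data were seen, the difference was 2.38. Clec7a (ENSMUSG00000079293, chromosome 6), which encodes dectin-1, a receptor for beta-glucan that signals through SYK, was at 3.23, 2.91 and 1.83 RPKM in shControl and at 6.30, 8.15 and 10.9 RPKM in shHepaCAM. The groups were separate, shControl replicate 3 was lowest and shHepaCAM replicate 3 highest. The ratio of means was 3.19 and the log2 difference 1.36 (SE 0.21). Axl (ENSMUSG00000002602, chromosome 7), a TAM family kinase that takes part in clearing dying cells and is also made by astrocytes and vessels, was at 12.7, 12.1 and 12.0 RPKM in shControl and at 12.9, 14.1 and 12.3 RPKM in shHepaCAM. The groups overlapped, since shHepaCAM replicate 3 lay under shControl replicate 1. The log2 difference was 0.09 (SE 0.07), and 0.00 after scaling libraries on their median gene.

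The secreted members differed from each other. Ccl6 (ENSMUSG00000018927, chromosome 11), a chemokine found in rodents, was at 1.79, 2.22 and 0.972 RPKM in shControl and at 4.30, 3.73 and 5.51 RPKM in shHepaCAM. The groups were separate, and the lowest value, in shControl replicate 3, rested on 26 reads. The ratio of means was 2.72 and the log2 difference 1.07 (SE 0.20). Spp1 (ENSMUSG00000029304, chromosome 5), which encodes osteopontin and is also made by neurons and border macrophages, was at 16.5, 11.8 and 7.90 RPKM in shControl and at 11.5, 14.7 and 15.4 RPKM in shHepaCAM. Its highest and its lowest value were both in shControl libraries. The log2 difference was 0.23 (SE 0.23), and -0.02 without shControl replicate 3. It was 0.47 without shControl replicate 1, 0.35 without shHepaCAM replicate 1 and 0.16 without shHepaCAM replicate 3.

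The endosomal and lysosomal members were higher. Ctss (ENSMUSG00000038642, chromosome 3), the cysteine protease cathepsin S of antigen-presenting cells, had the highest level per length of the members, at 97.9, 89.0 and 85.2 RPKM in shControl and 169, 188 and 194 RPKM in shHepaCAM. Both groups were tight and lay far apart relative to their spread. The ratio of means was 2.03 and the log2 difference 1.01 (SE 0.08). Cst7 (ENSMUSG00000068129, chromosome 2), which encodes cystatin F, an inhibitor of lysosomal cysteine proteases, was at 9.66, 4.80 and 7.89 RPKM in shControl and at 26.0, 28.0 and 42.9 RPKM in shHepaCAM. It had the largest log2 difference of the members on the log2(RPKM + 1) scale, 1.99 (SE 0.26), and a ratio of means of 4.34. That rank depends on the scale. Itgax had the larger ratio of means, 5.26, and the larger log2 difference in limma-voom, 2.38 against 2.14 for Cst7. Cst7 differed by more than the protease gene Ctss, with a log2 difference of 1.99 against 1.01. Cd68 (ENSMUSG00000018774, chromosome 11), a glycoprotein of macrophage lysosomes, was at 22.9, 20.1 and 23.3 RPKM in shControl and at 34.9, 27.6 and 43.1 RPKM in shHepaCAM. The groups were separate but the shHepaCAM libraries spread widely, with a log2 difference of 0.63 (SE 0.15), and Cd68 was not among the 7 past the threshold.

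The members are listed here by ratio of means, and breaks between them were not tested. Itgax, Cst7 and Clec7a had ratios of means above 3, Ccl6, Trem2 and Ctss between 2.03 and 2.72, Cd68 and Tyrobp 1.59 and 1.54, and Spp1 and Axl 1.15 and 1.07. In all 8 members whose groups were separate the highest library was shHepaCAM replicate 3, and shControl replicate 3 was lowest for 7 of the 10. That shHepaCAM library was also low in choroid plexus transcripts. With log2 Ttr, a choroid plexus transcript, as a covariate, the same 7 members were past the threshold. Without both shControl replicate 1 and shHepaCAM replicate 3, the log2 differences of Itgax, Ccl6, Tyrobp and Cd68 were 1.55, 0.99, 0.52 and 0.50. The number of members past the threshold was 4 without both, and with 1 library left out it was 4 without shControl replicate 2, 3 without shControl replicate 3 and 5 without each of the other 4 libraries. Trem2, Itgax and Ctss were among them in every one of these fits. Tyrobp and Ccl6 were not past the threshold in any fit with libraries left out. Cd68 was past it without shHepaCAM replicate 2, with the filter at 5 RPKM, with array weights and in limma-voom. The calls for Tyrobp and Cd68 thus depend on the setting.

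**Figure D2:**
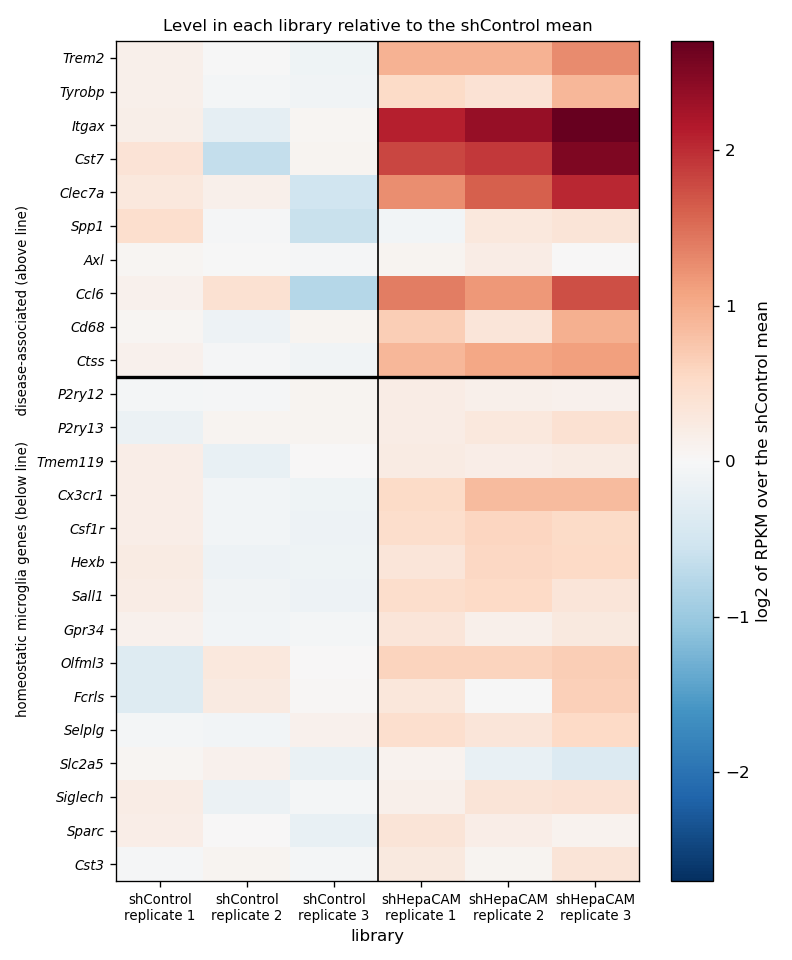
Colour shows the log2 of RPKM over the shControl mean for the 10 members (above the black line) and 15 homeostatic microglia genes (below it) in each library, with shControl replicates on the left and shHepaCAM replicates on the right. Among the members the shHepaCAM columns are darkest for Itgax and Cst7 and, in replicate 3, also Clec7a, and homeostatic genes are paler, with ratios to the shControl mean from 0.78 to 1.81 and medians of 1.22 to 1.32 in shHepaCAM libraries.

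Genes of homeostatic microglia, which disease-associated microglia lower in published models, did not fall past the threshold here. Of 15 tested, 3 rose in limma, 0 fell and 12 did not pass, with a median log2 difference of 0.26. In 10 of the 15 every shHepaCAM library was above every shControl library, against 20.9% of all genes tested. Cx3cr1, the fractalkine receptor, rose from 13.1 ± 1.57 to 22.1 ± 2.82 RPKM (SD, n = 3 each; log2 difference 0.71, SE 0.11, limma adjusted p = 0.0206). Csf1r, the receptor for the survival factor CSF1, rose by 0.51, and Selplg, a selectin ligand, by 0.41. The Selplg call (limma adjusted p = 0.0331) was lost in 12 of 17 alternatives, including both other normalizations and the removal of each single library except shHepaCAM replicate 2, with adjusted p-values from 0.0219 to 0.176 over all alternatives. The sensor P2ry12 was at 10.6 ± 0.478 and 11.8 ± 0.400 RPKM (SD, n = 3 each; limma adjusted p = 0.209). Tmem119 was at 13.6 ± 1.68 and 15.8 ± 0.231 RPKM (SD, n = 3 each; limma adjusted p = 0.210). The number of homeostatic genes called was 0 without shControl replicate 2, shControl replicate 3 or shHepaCAM replicate 3, each left out alone, and 1 without shHepaCAM replicate 2. At an unadjusted p of 0.05 the full set of libraries gave 10 of the 15.

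The members were also set against the homeostatic genes. After taking off the homeostatic median, the log2 difference was 1.73 for Cst7, 1.37 for Itgax and 1.10 for Clec7a, and -0.03 for Spp1 and -0.17 for Axl. The same 0.26 was taken off every member, so the spacing and order of the members are those of the plain log2 differences. Within libraries the ratio of Itgax to Csf1r RPKM was 0.0451, 0.0402 and 0.0517 in shControl and 0.139, 0.155 and 0.203 in shHepaCAM. Those groups stayed separate, as did the ratios of Trem2, Cst7, Clec7a, Ccl6 and Ctss to Csf1r. The ratio of Tyrobp to Csf1r was 1.37, 1.42 and 1.44 in shControl and 1.44, 1.24 and 1.83 in shHepaCAM, so the adaptor overlapped on this scale. Cd68 overlapped too, and the ratio of Axl to Csf1r was lower in every shHepaCAM library. Csf1r was the only denominator used here, and it rose by 0.51 against a median of 0.26 for homeostatic genes. Which ratios overlap can therefore depend on this choice of gene. Per library, the median of the members over their shControl mean was 1.89, 2.01 and 2.28 in shHepaCAM replicates 1, 2 and 3, against 1.25, 1.22 and 1.32 for homeostatic genes and 1.82, 1.75 and 2.10 for 13 pan-myeloid genes.

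Genes of myeloid cells at large were also higher. Of 13 pan-myeloid genes tested, 12 rose and 1, Itgam, did not pass, with a median log2 difference of 0.75. The complement subunits C1qb and C1qc rose by 0.95 and 0.92, and the Fc receptor Fcgr3 by 0.94. The subunit gene C1qa rose from 127 ± 12.6 to 257 ± 44.8 RPKM (SD, n = 3 each; ratio 2.02, limma adjusted p = 0.0117). It was not called without shControl replicate 2 or without shControl replicate 3, while C1qb and C1qc were called in all 17 alternatives. The number of pan-myeloid genes called was 4 without either of those shControl libraries, each left out alone, and 7 without shHepaCAM replicates 2 or 3. The 5 genes other than members whose profile over the 6 libraries lay nearest to the members' mean profile were C1qa, C1qb, C1qc, Rgs10 and Cxcl16. Their root mean square difference from it, on the log2(RPKM + 1) scale after taking off each gene's shControl mean, was 0.0684 to 0.0828 over 6 libraries. Rgs10, a regulator of G protein signalling, was at 14.1, 12.3 and 11.5 RPKM in shControl and at 23.6, 24.5 and 26.2 RPKM in shHepaCAM. Trem2 lay closest of the members to their mean profile, at 0.04, and Cst7 farthest, at 0.77.

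**Figure D3:**
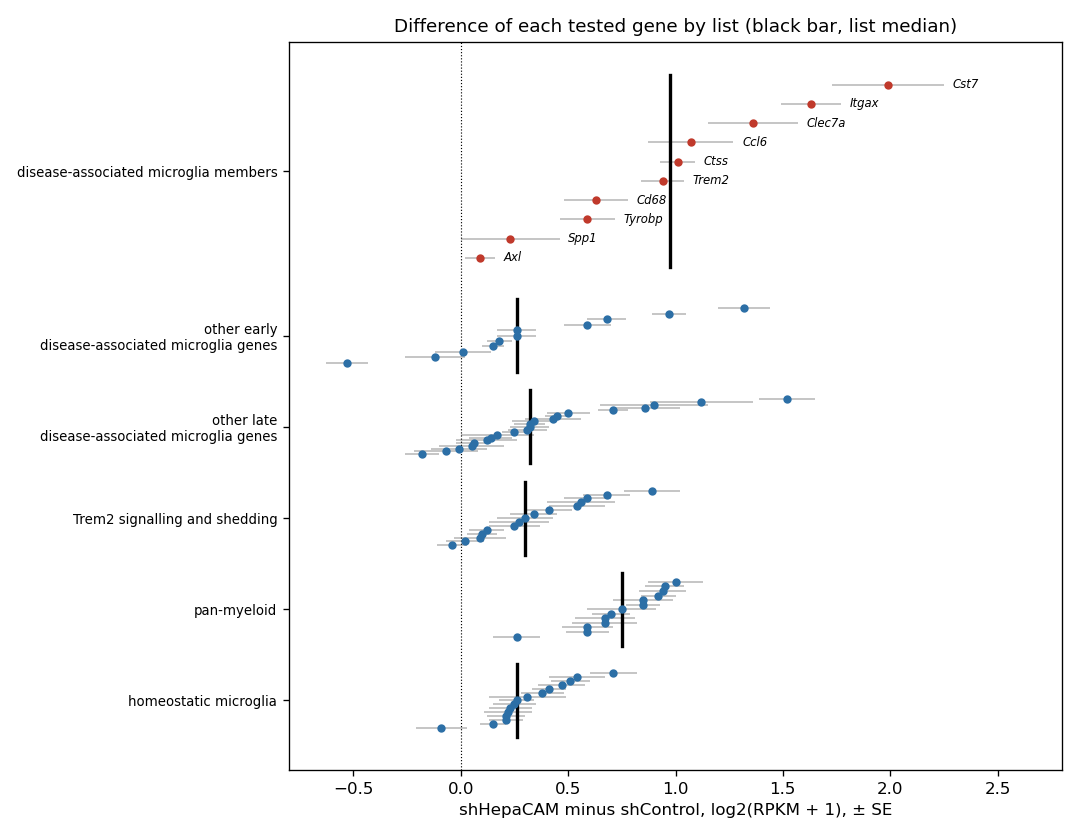
Log2 difference, shHepaCAM minus shControl, on the log2(RPKM + 1) scale with its SE (horizontal axis) for each tested gene of 6 lists, the members in red and named; black bars are list medians. The medians were 0.97 for the members, 0.75 for pan-myeloid genes and 0.26 to 0.32 for the other lists.

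Other genes of the early step moved in both directions. Of 11 tested, 4 rose, 1 fell and 6 did not pass, with a median log2 difference of 0.26. Lyz2, the lysozyme of myeloid cells, rose from 27.9 ± 1.30 to 71.7 ± 11.8 RPKM (SD, n = 3 each; log2 difference 1.32, SE 0.12, limma adjusted p = 0.00456). B2m, the light chain of class I molecules, rose by 0.97, Apoe, a lipid carrier of astrocytes and activated microglia, by 0.68, and the cathepsin gene Ctsz by 0.59. Fth1, the ferritin heavy chain that microglia raise with iron, fell from 2584 ± 17.5 to 1789 ± 160 RPKM (SD, n = 3 each; log2 difference -0.53, SE 0.10, limma adjusted p = 0.0299). Fth1 is made by all brain cell types and has processed copies in the genome, which makes its read assignment uncertain. The lysosomal protease genes Ctsb and Ctsd did not pass, and each had a log2 difference of 0.26, with limma adjusted p of 0.127 and 0.138. Lyz2 and B2m were called in all 17 alternatives. They were the 2 genes called without shControl replicate 1, 2 or 3, each left out alone, and Fth1 was also lost without shHepaCAM replicate 3.

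Of the other genes of the late step, 8 of 21 tested rose and 13 did not pass, with a median log2 difference of 0.32. Cd52, a small surface glycoprotein of leukocytes, rose from 4.33 ± 0.749 to 14.3 ± 1.96 RPKM (SD, n = 3 each; log2 difference 1.52, SE 0.13, limma adjusted p = 0.00394). The chemokine Ccl4 rose by 1.12 on few reads, 16 over shControl and 72 over shHepaCAM libraries. Cybb, the catalytic subunit of the phagocyte oxidase, rose by 0.86 and Lgals3bp, a secreted galectin ligand, by 0.71. Cd9, Capg, Ctsl and Serpine2 rose by 0.45, 0.50, 0.32 and 0.25. Some well-known genes of the late state did not pass. Lpl, which releases fatty acids from lipoproteins, was at 4.19 ± 0.436 and 4.95 ± 1.53 RPKM (SD, n = 3 each; limma adjusted p = 0.591), and Gpnmb, a glycoprotein of lipid-laden macrophages, at 8.80 ± 0.842 and 9.26 ± 1.98 RPKM (SD, n = 3 each; limma adjusted p = 0.860). Lpl, Gpnmb, Cd9, Capg, Ctsl and Serpine2 were named after their values were seen. The number called was 3 without shControl replicate 1 or shHepaCAM replicate 3, 2 without shControl replicate 2 or 3, and 5 without shHepaCAM replicate 1 or 2. Cd52 and Lgals3bp were called in all 17 alternatives; Ccl4 was lost in 11 of 16, and Cybb in 8 of 16, and for both these included the removal of each single library except shHepaCAM replicate 1. Both of the other normalizations gave a count of 4.

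Some genes that act downstream of TREM2 rose. Of 15 genes of TREM2 signalling and shedding tested, 3 rose and 12 did not pass, with a median log2 difference of 0.30. Ptpn6, the phosphatase SHP-1 that restrains immune receptor signals, rose from 2.64 ± 0.359 to 5.78 ± 0.918 RPKM (SD, n = 3 each; log2 difference 0.89, SE 0.13, limma adjusted p = 0.0142). Vav1 rose by 0.68, and Inpp5d, the lipid phosphatase SHIP-1, by 0.59. Syk, the kinase that DAP12 recruits, lay under the filter at 0.768, 0.634 and 0.638 RPKM in shControl and 0.952, 1.22 and 1.27 RPKM in shHepaCAM libraries, with groups that did not overlap. Plcg2, a phospholipase downstream of SYK, had a log2 difference of 0.34 (limma adjusted p = 0.118). The sheddases Adam10 and Adam17, which release the TREM2 ectodomain, had log2 differences of -0.04 and 0.12 (limma adjusted p = 0.777 and 0.400). The number called was 0 without shControl replicate 2 or shControl replicate 3, each left out alone, and 1 without shHepaCAM replicate 3, with 7 genes under an unadjusted p of 0.05 in the full set. Inpp5d was also lost without shControl replicate 1 or shHepaCAM replicate 2. Limma-voom called 5 of 13. Syk, Plcg2, Adam10 and Adam17 were named after their values were seen.

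Relatives of TREM2 and of AXL gave few values to compare. Of 12 genes of the TREM family and other DAP12-coupled or sialic acid receptors, 10 lay under the filter, and Trem1 had 0 reads over the shControl and 3 over the shHepaCAM libraries. The 2 tested, Cd33 and Siglech, had log2 differences of 0.55 and 0.25 (limma adjusted p = 0.114 and 0.193; 0 called in limma and in limma-voom, 2 under an unadjusted p of 0.05). Without shHepaCAM replicate 1, Cd33 was at 0.73 with a limma adjusted p of 0.0389. Among TAM receptors and their ligands, Pros1, the ligand protein S, rose by 0.54 (SE 0.12, limma adjusted p = 0.0496). This call was lost in 12 of 16 alternatives, including the removal of each single library except shControl replicate 1, with adjusted p-values from 0.0300 to 0.167 over all alternatives. The receptor Mertk was at 8.33 ± 0.966 and 8.42 ± 0.516 RPKM and the ligand Gas6 at 45.0 ± 11.2 and 43.6 ± 3.83 RPKM (SD, n = 3 each), with log2 differences of 0.02 and -0.02.

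Markers of other cells that express some members were compared in the same libraries. Itgax also marks dendritic cells, for which 8 markers summed to 7.16 to 8.65 RPKM in shControl and 7.71 to 9.40 RPKM in shHepaCAM libraries. Much of this was Siglech, also listed here as a homeostatic microglia gene, at 4.53, 3.53 and 3.83 RPKM in shControl and 4.39, 5.07 and 5.23 RPKM in shHepaCAM. Of the 8, Ccr7 alone was higher without overlap (ratio of means 3.36, on 7 and 23 reads), and 0 were lower without overlap. Flt3, a receptor of dendritic cell precursors, was at 1.82 ± 0.119 and 1.72 ± 0.129 RPKM (SD, n = 3 each), Xcr1 and Cd209a were at 0 in at least 1 library, and 0 of the 2 markers tested were called in limma or limma-voom, with 1 under an unadjusted p of 0.05. Cst7 and Tyrobp are also made by cytotoxic lymphocytes, for which 12 T and NK cell markers summed to 1.15 to 1.86 RPKM in shControl and at least 4.64 RPKM in each shHepaCAM library. All 12 lay under the filter, the highest single value was 1.73 RPKM, and Gzma, Prf1, Klrb1c and Ncr1 were at 0 in at least 1 library. The part of these lymphocytes in the level of Cst7 was not tested. For monocytes and neutrophils, 9 markers summed to 4.63 to 9.56 RPKM in shControl and 12.3 to 17.4 RPKM in shHepaCAM. Of 5 tested, Ly6c2, a surface antigen of blood monocytes, rose by 2.33 (SE 0.44, limma adjusted p = 0.0317), from 0.427, 0.253 and 0.441 RPKM to 2.98, 4.41 and 14.1 RPKM. The gene has a near-identical neighbour expressed in vessels, so its reads are uncertain, and it was not called without any 1 shControl library or without shHepaCAM replicate 2, nor in limma-voom. Without Ly6c2, a sum added after the data were seen, the other 8 markers were at 4.20, 9.31 and 6.42 RPKM in shControl and 9.64, 7.90 and 3.29 RPKM in shHepaCAM, and the groups overlapped. The neutrophil genes S100a8 and S100a9 had ratios of means of 0.46 and 0.89, and Chil3 of 0.64, with overlapping groups. Ccr2, the chemokine receptor of those monocytes, had 12 reads over shControl and 53 over shHepaCAM libraries, a ratio of means of 4.58 without overlap. Plac8 was also higher without overlap, with a ratio of means of 3.05 (log2 difference 0.77, SE 0.18, limma adjusted p = 0.0515). The sum over 8 markers joins both with S100a8, S100a9 and Chil3, whose means were lower. The 10 border macrophage markers summed to 4.28 to 4.83 RPKM in shControl and 5.08 to 6.76 RPKM in shHepaCAM, with Clec10a and Cd209f at 0 in at least 1 library. Of these 10, Ms4a7, Cd209f and Stab1 were higher without overlap, while Lyve1, F13a1 and Cbr2 had ratios of means of 0.83, 0.85 and 0.59. The 1 tested, Stab1, had a log2 difference of 0.21 (limma adjusted p = 0.198; 0 called in limma and limma-voom, 1 under an unadjusted p of 0.05). Among all 29872 genes in the files, with no filter, 4081 were higher without overlap and 1923 were lower. Of the T and NK cell markers 7 of 12 were higher without overlap. The part of these cells in the members' levels was not tested.

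**Figure D4:**
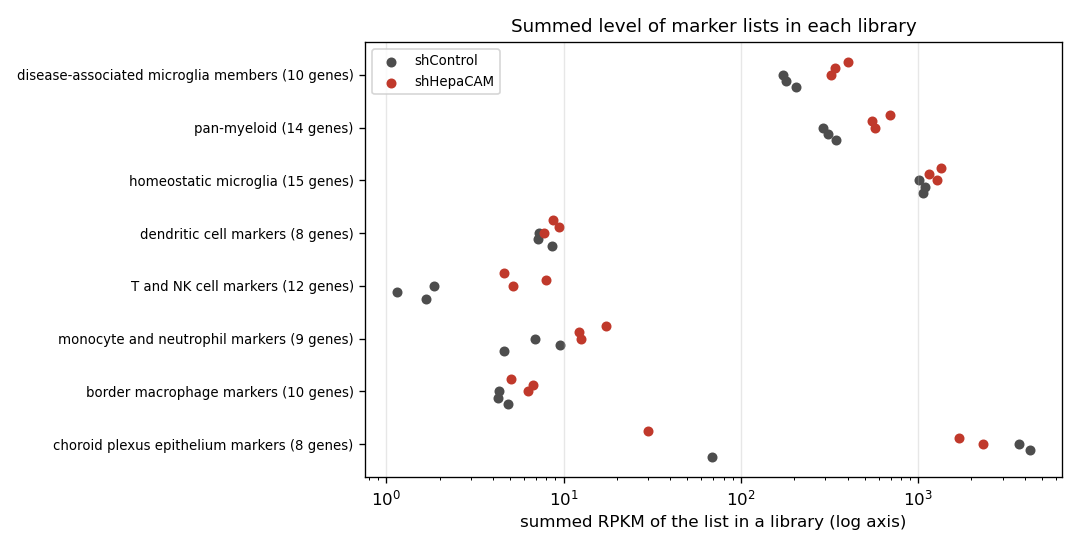
Summed RPKM (log axis) of each marker list in the 3 shControl (grey) and 3 shHepaCAM (red) libraries. Sums of the 10 members ran from 174 to 206 in shControl and from 324 to 402 in shHepaCAM, those of lymphocyte, monocyte and border macrophage lists were far lower, and choroid plexus sums were low in 1 library of each group.

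Cell division genes gave no measure of microglial proliferation, since bulk tissue does not show which cells made these transcripts. All 6 lay under the filter, with summed RPKM of 1.40 to 1.70 in shControl and 1.49 to 1.82 in shHepaCAM libraries. Mki67 and Ccnb1 were higher without overlap, with ratios of means of 1.27 and 1.54, and 0 of the 6 were lower without overlap. Of all 29872 genes in the files, 4081 were higher without overlap. Other brain cells were compared for reference. Of 8 astrocyte markers, Slc1a2, a glutamate transporter, fell by 0.37 on the log2 scale (limma adjusted p = 0.0181) and 7 did not pass. Of 6 neuron markers, Snap25, a synaptic vesicle fusion gene, fell by 0.70 and Camk2a, a synaptic kinase, by 0.34 (limma adjusted p = 0.0441 and 0.0348). All 3 of these calls were lost when any 1 shControl library was left out, and Snap25 and Camk2a also without shHepaCAM replicate 3. Camk2a was lost without shHepaCAM replicate 1 as well. Choroid plexus markers had a median log2 difference of -0.60 and meningeal fibroblast markers one of 0.32, with 0 of 8 and 0 of 6 called in limma, 0 in limma-voom, and 0 and 1 under an unadjusted p of 0.05.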

How the data were processed

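RNA-seq libraries of mouse hippocampus were grouped by their titles (3 shControl, 3 shHepaCAM). The deposited values are RPKM, computed by the authors, 1 file per library. TopHat2 (2.0.12), Bowtie2 (2.0.6) and mm39 are named, per the submitters' processing notes. How reads were counted, against which gene models and with which strand setting is not stated in those notes. The unit was checked from the values. With GENCODE M21 exon lengths, 27390 genes (91.9% of the 29805 with a length) came out as whole reads within 0.01 read in every library, which also gave each library's depth. Symbols were matched for 29805 of 29872 identifiers. The build of GENCODE M21 differs from mm39, and that annotation was used for names, chromosomes and lengths alone. Reads from different libraries differed by a chi-square per degree of freedom of at least 3.95, so each library counted as 1 sample.

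Groups were compared on log2(RPKM + 1) with limma-trend (limma 3.58.1, R 4.3.3), for 13864 genes averaging 1 RPKM or more, with Benjamini-Hochberg adjustment over all of them and a threshold of 0.05. It was tested on simulated data, with an equal dispersion for every gene and no library set apart. That check does not show how stable the calls are in these libraries. Precision is limited by 3 libraries a group, and read counts cover counting error only. The members and gene lists were chosen with earlier results of these data known. Named genes were the members, Hepacam, up to 4 called genes per direction and list with the largest differences (or the 2 with the smallest p where none was called), and the 5 nearest profiles. Alternatives were 2 normalizations, 2 filters, a pseudocount of 0.1, limma without trend, array weights, a replicate block, log2 Ttr as a covariate, leaving out each library and leaving out shControl replicate 1 together with shHepaCAM replicate 3; limma-voom on whole reads was added after the data were seen. Plots used matplotlib 3.10.9 (Python 3.11.15). Genes named outside this rule (P2ry12, Tmem119, Itgam, Ctsb, Ctsd, Trem1, Mertk, Gas6, Ccr2, Plac8, S100a8, S100a9, Chil3, Ccr7, Ms4a7, Cd209f, Lyve1, F13a1, Cbr2, Mki67, Ccnb1 and those so marked in the text) were chosen after their values were seen, as were the promoters printed.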

Additional observations from a re-analysis of the deposited data

How the results depend on the processing

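Trem2, Tyrobp, Cst7, Clec7a, Cd68 and Ctss kept their direction in 17 alternatives, and Itgax and Ccl6 in the 16 that tested them. Axl was at 0.00 after scaling to the median gene, and Spp1 ran from -0.02 without shControl replicate 3 to 0.47 without shControl replicate 1. The choroid plexus gene Kl, at a log2 difference of -0.58, ran from -1.35 without shControl replicate 1 to 0.02 without shHepaCAM replicate 3. Hepacam was at -0.68 to -0.58 with single libraries left out and at -0.54 without shControl replicate 1 and shHepaCAM replicate 3, the 2 libraries low in choroid plexus, where it missed the threshold (limma adjusted p = 0.0695). With single libraries left out, 98 to 867 genes were called in all, 3 to 5 members, 2 to 5 other early and 2 to 5 other late genes, 0 to 4 of TREM2 signalling, 0 to 1 of TREM relatives, 0 to 1 of TAM genes, 0 to 3 homeostatic, 4 to 10 pan-myeloid and 0 to 1 monocyte and neutrophil genes. Without those 2 libraries the counts were 104 genes in all, 4 members, 2 early, 2 late, 0 signalling, 0 TAM, 0 homeostatic and 6 pan-myeloid. With no filter, which tests 29872 genes, they were 169 in all, 4 members, 2 early, 3 late, 0 signalling, 0 TAM, 0 homeostatic, 5 pan-myeloid and 0 monocyte and neutrophil genes. With the replicate block, which leaves fewer degrees of freedom, they were 157 in all, 4 members, 2 early, 2 late, 0 signalling, 0 TAM, 0 homeostatic, 4 pan-myeloid and 0 monocyte and neutrophil genes. Replicate numbers share only a number: correlations of same-numbered deviations from the group means were -0.21, 0.0155 and -0.145, so no pairing was used. With the filter at 5 RPKM, 5 late genes of 14, 0 signalling genes of 4, 0 TAM genes of 3 and 5 homeostatic genes of 13 were called. Quantile normalization gave 4 late and 0 TAM genes, scaling to the median gene 4 late and 0 TAM genes, log2 Ttr as a covariate 5 late and 0 TAM genes, limma without trend 0 TAM and 2 monocyte and neutrophil genes, array weights 2 monocyte and neutrophil genes, and limma-voom 5 signalling and 5 homeostatic genes. Where no construction is named, the cause was not tested. T and NK cell markers had no gene above the filter, so no count of calls exists for them. Depth limits those genes under 1 RPKM for which a few reads decide a ratio.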
